A study of Mus musculus with 4 samples.

Results

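The genes described are Dlx1, Dlx2, Dlx5, Dlx6, the noncoding gene Dlx6os1, Sp8 and Sp9, a set of forebrain transcription factors and 1 RNA that mark the fate of neurons using the transmitter GABA. They were taken by gene symbol from the deposited count tables, and all 7 were found among 24100 genes. The tissue was the prefrontal cortex of untreated adult male Crh-IRES-Cre mice, which make Cre recombinase from the locus of Crh, the stress peptide gene. The immunopurified (IP) group was 3 libraries of RNA pulled down with EGFP-tagged polysomes by antibodies to EGFP, a method called translating ribosome affinity purification (TRAP). The Input group was 1 library of the same line, tissue and sex, and each library was made from 5 pooled males. The labels did not say how the tag reached the cells, nor which libraries shared animals, and every p-value below therefore reflects variation among these libraries alone, part of which may be technical.

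Dlx proteins are homeodomain transcription factors made by GABAergic precursors of the ventral forebrain. In the mouse, Dlx1 and Dlx2 act first, in dividing precursors, and Dlx5 and Dlx6 follow in cells that leave the cycle, each pair sitting side by side on its chromosome with shared enhancers between the genes. Dlx6os1, also called Evf2, is a long noncoding RNA read from the opposite strand of the Dlx6 locus and is known to act on Dlx5 and Dlx6 in the embryonic forebrain. Sp8 and Sp9 are zinc finger factors of the same lineage, Sp8 in precursors that give rise to cortical interneurons of the caudal ganglionic eminence (CGE) and to olfactory bulb interneurons, Sp9 in several ganglionic eminence lineages. In adult cortex these genes stay on in interneurons at differing levels, and Dlx1 is known for the survival of some dendrite-targeting interneuron types.

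In the mouse build GRCm38, Dlx1 (Entrez 13390) lay on chromosome 2 from 71528113 to 71533981 and Dlx2 (Entrez 13392) from 71543408 to 71546754, with 9.43 kb between them. Sp9 (Entrez 381373) lay further along chromosome 2, from 73271926 to 73275771. On chromosome 6, Dlx6 (Entrez 13396) ran from 6863334 to 6867970 and Dlx5 (Entrez 13395) from 6877801 to 6882068, with 9.83 kb between them. The gene body of Dlx6os1 (Entrez 320038, 6820543 to 6871627) spans that of Dlx6 on the other strand, but their annotated exons share no base. Sp8 (Entrez 320145) lay on chromosome 12, from 118846288 to 118852578. Other features shared exon bases with Dlx1 (6.21%, the antisense gene Dlx1as), Dlx6 (4.38%, Dlx6os2), Dlx6os1 (7.42%, the gene models Gm27905 and Gm27699) and Sp9 (5.35%, Cir1). Whether the counting used strand is not given in the sources used here, so reads in those stretches cannot be told apart.

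The stretches around the start sites are shown because Dlx1 and Dlx6os1, the 2 genes that rose in IP, differ there in base composition. These windows, from RefSeq on GRCm38.p6, run from 250 bases before to 50 bases after a start, and 5 of the 7 genes had one. Capitals mark the homeodomain core TAATTA or TAATTG and the GC box GGGCGG, searched on both strands. For Dlx6os1 the first of 2 listed starts is shown, and for Sp8 the second of 3.
Dlx1, chr2:71529195-71529494, plus strand: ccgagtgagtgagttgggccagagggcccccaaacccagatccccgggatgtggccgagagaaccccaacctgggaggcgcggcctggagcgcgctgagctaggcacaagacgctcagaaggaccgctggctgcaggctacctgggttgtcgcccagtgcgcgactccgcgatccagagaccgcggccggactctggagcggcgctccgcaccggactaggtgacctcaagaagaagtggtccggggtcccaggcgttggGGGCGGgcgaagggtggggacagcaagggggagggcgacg
Dlx2, chr2:71546705-71547004, minus strand: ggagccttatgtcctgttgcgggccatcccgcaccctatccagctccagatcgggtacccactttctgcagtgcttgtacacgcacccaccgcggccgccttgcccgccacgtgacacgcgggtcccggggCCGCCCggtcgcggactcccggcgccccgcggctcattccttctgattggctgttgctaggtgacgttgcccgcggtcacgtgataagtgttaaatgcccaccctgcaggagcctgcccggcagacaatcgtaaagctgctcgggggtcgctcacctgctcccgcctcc
Dlx6os1, chr6:6869484-6869783, minus strand: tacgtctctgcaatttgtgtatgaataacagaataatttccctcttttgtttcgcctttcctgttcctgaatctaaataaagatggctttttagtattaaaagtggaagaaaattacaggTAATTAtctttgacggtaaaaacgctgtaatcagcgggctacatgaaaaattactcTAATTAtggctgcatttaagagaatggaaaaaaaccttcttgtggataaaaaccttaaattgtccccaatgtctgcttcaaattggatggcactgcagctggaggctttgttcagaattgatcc
Sp8, chr12:118846983-118847282, plus strand: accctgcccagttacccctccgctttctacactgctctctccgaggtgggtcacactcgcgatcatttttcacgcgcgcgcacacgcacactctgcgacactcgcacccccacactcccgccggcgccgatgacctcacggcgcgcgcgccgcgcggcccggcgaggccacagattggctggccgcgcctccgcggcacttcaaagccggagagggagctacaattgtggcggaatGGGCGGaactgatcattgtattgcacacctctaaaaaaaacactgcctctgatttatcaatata
Sp9, chr2:73271676-73271975, plus strand: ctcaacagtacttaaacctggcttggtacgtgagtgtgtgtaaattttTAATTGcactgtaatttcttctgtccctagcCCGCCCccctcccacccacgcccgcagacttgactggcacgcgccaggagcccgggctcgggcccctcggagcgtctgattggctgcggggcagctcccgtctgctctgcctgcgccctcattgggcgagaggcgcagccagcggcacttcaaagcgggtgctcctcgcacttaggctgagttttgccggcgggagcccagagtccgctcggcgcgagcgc

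GC content was 69.3% for Dlx1, 66.3% for Dlx2 and 63.7% for Sp9, against a median of 52.7% over 27025 promoters, and 35.7% for Dlx6os1. Dlx6os1 held 2 copies of TAATTA and no GC box, whereas Dlx1 and Dlx2 held 1 GC box each and neither homeodomain core. The second Dlx6os1 start, not shown, had 35.3% GC with 1 TAATTA and 1 TAATTG. For Sp8, GC was 43%, 61% and 53% at starts 1, 2 and 3, with 1 GC box at start 2 and 1 TAATTA at start 3. TAATTA or TAATTG was present in 12.6% of all promoters and GGGCGG in 35.9%, counted at the first listed start of each gene, as was the median GC. A match is only a match of letters, and binding was not measured.

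The Dlx genes are also alike in their coding sequence, which bears on whether reads could be assigned to the wrong gene. The 180 coding bases most alike among the 4 Dlx genes are given here from GENCODE M21, with capitals at bases that differ from Dlx1.
Dlx1, coding bases 376 to 555: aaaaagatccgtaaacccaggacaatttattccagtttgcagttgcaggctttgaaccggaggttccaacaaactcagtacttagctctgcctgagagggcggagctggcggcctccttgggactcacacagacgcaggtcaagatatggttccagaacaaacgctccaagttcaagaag
Dlx2, coding bases 457 to 636: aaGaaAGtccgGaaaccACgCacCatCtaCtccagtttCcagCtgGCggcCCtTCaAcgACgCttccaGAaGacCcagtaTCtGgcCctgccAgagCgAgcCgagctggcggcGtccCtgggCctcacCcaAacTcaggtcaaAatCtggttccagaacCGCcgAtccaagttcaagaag
Dlx5, coding bases 403 to 582: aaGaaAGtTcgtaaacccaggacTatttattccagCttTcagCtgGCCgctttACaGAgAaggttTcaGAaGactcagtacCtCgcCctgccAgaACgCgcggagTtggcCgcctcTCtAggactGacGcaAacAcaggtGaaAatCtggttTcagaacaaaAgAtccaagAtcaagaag
Dlx6, coding bases 505 to 684: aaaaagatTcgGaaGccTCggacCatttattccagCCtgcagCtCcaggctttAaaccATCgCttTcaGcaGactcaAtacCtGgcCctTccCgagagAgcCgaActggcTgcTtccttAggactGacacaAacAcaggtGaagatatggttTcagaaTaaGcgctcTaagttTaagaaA

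In this window Dlx2 differed from Dlx1 at 46 of 180 bases, Dlx5 at 43 and Dlx6 at 40. Over whole transcripts, the longest run shared by Dlx1 and Dlx2 was 15 bases and by Dlx5 and Dlx6 23 bases. Sp8 and Sp9 were closer, 94.4% identical over their own most alike 180 coding bases, with a longest shared run of 44 bases. No stretch of 50 bases was thus common to any pair of the 7, although 0.985% of such stretches in Sp9 occur in the related gene Sp5 and 7.57% of those in Dlx6 recur elsewhere, in 596 genes in all. The read length is not given in the sources used here.

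Libraries held 10031072 to 23548375 counts in IP and 14474529 in the Input. Levels are CPM, counts scaled to library size with TMM factors, and a single count was worth 0.0436 to 0.107 CPM in IP and 0.0600 CPM in the Input. Crh, whose locus drives Cre, was at 501, 174 and 193 CPM in IP 1, 2 and 3, against 1.32 CPM in the Input. Of 14636 genes tested with edgeR's quasi-likelihood method, 60 were higher in IP and 7 lower at a Benjamini-Hochberg adjusted p under 0.05. These counts were 185 and 25 without IP 1 and 95 and 10 without IP 2, and 50 and 15 with library totals or 51 and 15 with upper-quartile factors in place of TMM. Error was estimated among the 3 IP libraries alone, on the assumption that an Input library would vary as much.

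All 7 genes were tested, and each lay above the Input in all 3 IP libraries, as did 19.7% of all genes tested. Dlx1 and Dlx6os1 rose, 2 of 7 where 0.41% of all genes tested were called higher, 0.0478% lower and 0.458% in either direction, and the other 5 did not pass the threshold. At an unadjusted p under 0.05, 5 of the 7 were higher, against 3.2% of all genes tested. DESeq2 called 5 of the 7 (Dlx1, Dlx2, Dlx5, Dlx6os1 and Sp8), against 1.15% of all genes tested called higher, 0.0888% lower and 1.24% in either direction. Of the 7, limma-voom called Dlx1 and Dlx6os1, against 0.253% of all genes tested called higher, 0.0957% lower and 0.348% in either direction. The median log2 fold of the 7 was 3.001, beside 0.083 for all genes tested. Together the 7 summed to 773, 583 and 557 CPM in IP 1, 2 and 3 and to 52.1 CPM in the Input.

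**Figure D1:**
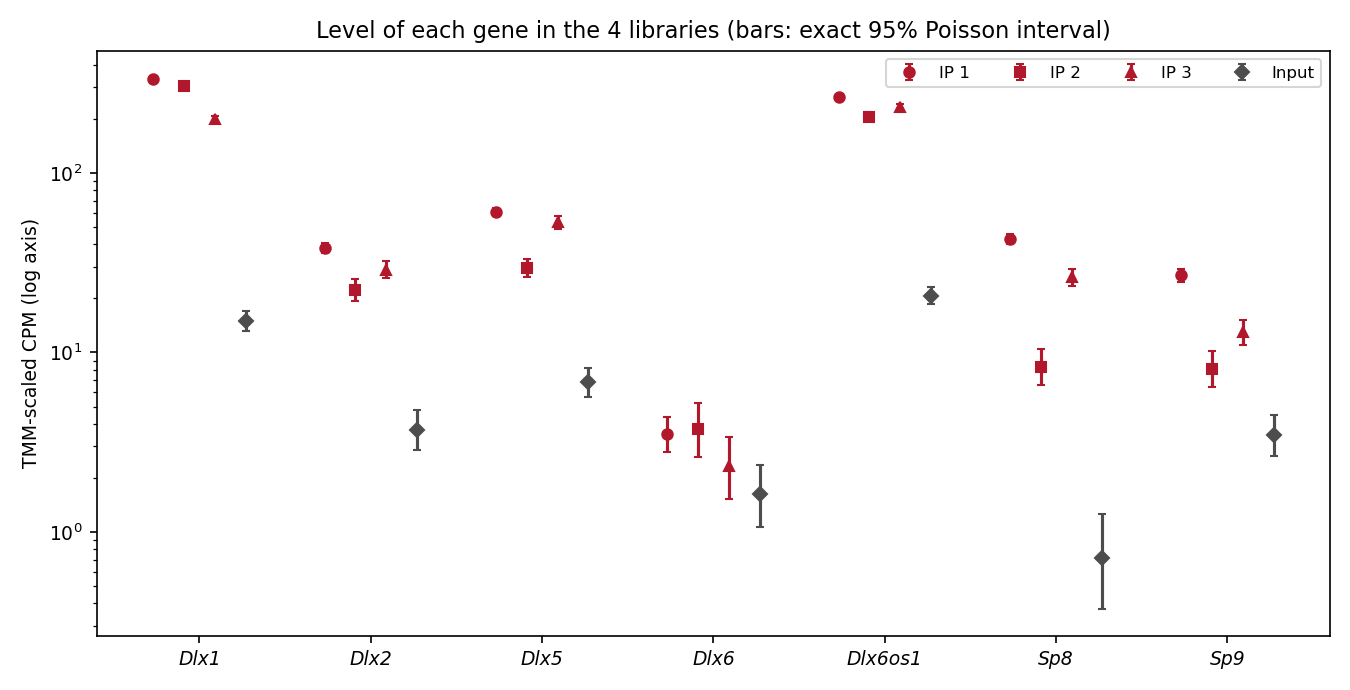
TMM-scaled CPM (log axis) of the 7 genes in IP 1, 2 and 3 (red) and in the Input (grey), 1 point per library with its exact 95% Poisson interval, which covers counting error only. Every gene is lowest in the Input, the gap is smallest for Dlx6, and Sp8 and Sp9 are spread most widely among the IP libraries.

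Dlx1, the factor of the first pair that is best known from adult interneurons, was at 334, 305 and 200.1 CPM in IP 1, 2 and 3, against 15.0 CPM in the Input. The lowest IP library was thus 13.3-fold above the Input, and the groups did not overlap. IP libraries averaged 279.7 ± 70.4 CPM (SD, n = 3), and the fitted log2 fold was 4.22 ± 0.59 (SE; edgeR adjusted p = 0.000676). This call held under all 11 alternatives, with log2 folds of 3.95 to 4.41 and adjusted p-values of 4.17e-14 to 0.0445. The antisense gene Dlx1as, read across part of the Dlx1 locus, was at 31.9, 37.4 and 45.8 CPM in IP, against 5.58 CPM in the Input. Its log2 fold of 2.78 ± 1.01 did not pass (edgeR adjusted p = 0.673), and 20.55% of its exon bases lie in exons of Dlx1.

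Dlx2, the other member of that pair, was at 38.2, 22.3 and 28.9 CPM in IP 1, 2 and 3, against 3.72 CPM in the Input, where it had 62 counts. All IP libraries were at least 6.01-fold above the Input. The mean in IP was 29.8 ± 7.96 CPM (SD, n = 3) and the log2 fold 3.001 ± 1.13, which did not pass in edgeR (adjusted p = 0.747) but did in DESeq2 (adjusted p = 0.0222). Dlx5, the later gene that promotes interneuron differentiation with Dlx6, was at 60.6, 29.6 and 53.0 CPM in IP and at 6.84 CPM in the Input. Its log2 fold was 2.80 ± 0.96 (adjusted p = 0.557 in edgeR, 0.0113 in DESeq2). IP 2 was the lowest IP library for Dlx2 and Dlx5, and for neither gene did the groups overlap.

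Dlx6, the partner of Dlx5, had the smallest fold of the 7. It was at 3.53, 3.74 and 2.33 CPM in IP 1, 2 and 3, from 81, 35 and 27 counts, and at 1.62 CPM in the Input, from 27 counts. The counting interval of IP 3 (1.53 to 3.39 CPM) overlapped that of the Input (1.07 to 2.36 CPM), while those of IP 1 and 2 did not. Its log2 fold was 0.98 ± 2.18 (edgeR adjusted p = 1), and it was called under none of the alternatives that tested it.

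Dlx6os1, whose gene body spans the Dlx6 locus on the other strand, rose. It was at 267, 206 and 233 CPM in IP 1, 2 and 3, against 20.7 CPM in the Input, so that every IP library was at least 9.93-fold above the Input. The mean in IP was 235 ± 30.6 CPM (SD, n = 3) and the log2 fold 3.50 ± 0.57 (edgeR adjusted p = 0.00279). The call held under all 11 alternatives, with log2 folds of 3.23 to 3.59, though with limma-voom the adjusted p was 0.0499.

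Sp8, the zinc finger factor of CGE-derived and olfactory bulb interneurons, had the largest fitted fold of the 7 and differed most between IP libraries. It was at 42.8, 8.34 and 26.2 CPM in IP 1, 2 and 3, against 0.720 CPM in the Input, which rested on 12 counts (counting interval 0.372 to 1.26 CPM). All IP libraries were far above that interval, but they differed among themselves by up to 5.14-fold. The log2 fold was 5.15 ± 1.499, which did not pass in edgeR (adjusted p = 0.284). It passed in DESeq2 (adjusted p = 0.000333) and in edgeR without IP 2 (log2 fold 5.57, adjusted p = 0.00959), and over all 11 alternatives its log2 fold was 4.55 to 5.57.

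Sp9, the close relative of Sp8, was at 26.9, 8.13 and 13.0 CPM in IP 1, 2 and 3, against 3.48 CPM in the Input. The lowest IP library was 2.34-fold above the Input. The log2 fold of 2.20 ± 1.38 did not pass (edgeR adjusted p = 1), nor did it in DESeq2 or limma-voom, and it was 1.58 without IP 1.

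**Figure D2:**
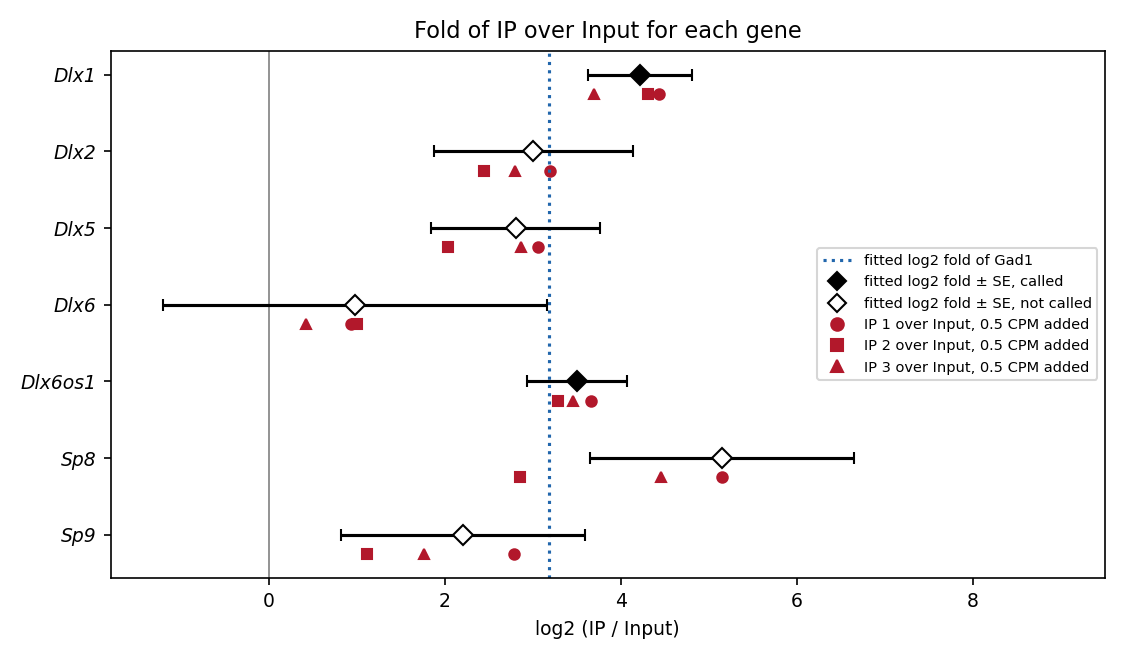
Fitted log2 fold of IP over Input with its SE (diamonds, filled where the adjusted p was under 0.05) and log2 ratios of single IP libraries to the Input with 0.5 CPM added (red). Dlx1 and Dlx6os1 are the filled diamonds at 4.22 and 3.50, right of the dotted line at the fitted log2 fold of Gad1 (3.18), and Dlx6 lies nearest to 0.

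Read against Gad1, the gene of the GABA-synthesizing enzyme GAD67, the genes lay on either side. In IP 1, 2 and 3 the log2 ratio to the Input, with 0.5 CPM added, exceeded that of Gad1 by 1.06, 1.49 and 0.41 for Dlx1, by 0.28, 0.47 and 0.18 for Dlx6os1 and by 1.78, 0.045 and 1.17 for Sp8. These 3 genes were above Gad1 in every IP library. The added 0.5 CPM is close to the Input level of Sp8 (0.720 CPM) and lowers its ratios. In IP 2 Sp8 was 11.6-fold above the Input without it, and its log2 ratio with it was 2.86. Differences from Gad1 were -0.17, -0.38 and -0.48 for Dlx2, -0.31, -0.78 and -0.41 for Dlx5, -0.58, -1.70 and -1.52 for Sp9 and -2.44, -1.81 and -2.87 for Dlx6. Those 4 were below Gad1 in every IP library. Set against Gad2, the gene of the related enzyme GAD65, the order of some turned. Dlx2 exceeded Gad2 by 0.69, 0.32 and 0.31, and Dlx5 differed from it by 0.55, -0.075 and 0.38. Sp9 was above Gad2 in IP 1 and below it in IP 2 and 3, whereas Dlx1, Dlx6os1 and Sp8 stayed above and Dlx6 below in every IP library. Differences among the 7 were not tested, and fewer cells of a type and less RNA per cell cannot be told apart in such bulk libraries.

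Ratios within a pair do not depend on how libraries are scaled, so the share of counts taken by 1 gene of each pair was also compared. Dlx1 took 89.7%, 93.2% and 87.4% of the counts of Dlx1 and Dlx2 in IP 1, 2 and 3, and 80.1% in the Input (exact Clopper-Pearson 95% interval 75.3 to 84.4%). The lowest IP interval began at 86.1%, above the Input's. Dlx5 took 94.5%, 88.8% and 95.8% of the counts of Dlx5 and Dlx6 in IP, and 80.9% in the Input (73.4 to 87.0%), whose interval overlapped that of IP 2 (84.7 to 92.1%). Dlx6os1 took 98.7%, 98.2% and 99.0% of the counts of Dlx6os1 and Dlx6 in IP, and 92.8% in the Input (89.6 to 95.2%). The widest gap was in the Sp pair, in which Sp8 took 61.4%, 50.6% and 66.8% in IP, and 17.1% in the Input (9.18 to 28.0%, from 70 counts). In all 4 pairs the Input lay outside the range of the IP libraries, and intervals cover counting error only. How often pairs of other genes do so was not counted. Of single genes tested, 19.7% were above the Input in all 3 IP libraries and 24.1% below it. The pairs of Dlx5 and of Dlx6os1 share the counts of Dlx6 (27 in the Input) and are not independent. The differences in share were not tested over libraries.

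**Figure D3:**
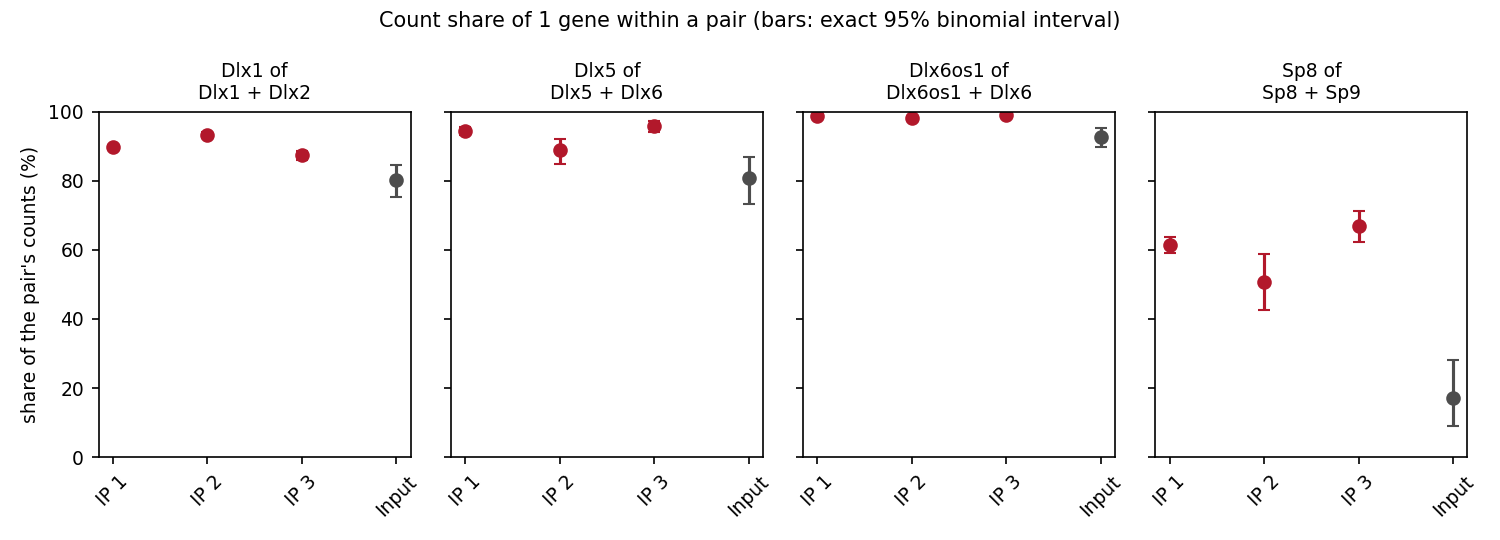
Share of a pair's counts (%) taken by 1 gene in IP 1, 2 and 3 (red) and in the Input (grey), with exact 95% binomial intervals. The IP points lie above the Input point in each panel, by the most for Sp8 (50.6 to 66.8% in IP, 17.1% in the Input).

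Levels of different genes were compared per kilobase of annotated exon. In IP, Dlx1 averaged 51.8 ± 13.0 CPM per kb and Dlx6os1 45.1 ± 5.86 (SD, n = 3 each), and their ranges overlapped. Dlx5 followed at 21.1 ± 7.14 and Dlx2 at 10.4 ± 2.79, below the other pair in every library, with ranges that touched each other. Sp8 was at 5.66 ± 3.79 and Sp9 at 3.18 ± 1.93, and Dlx6 was lowest at 1.35 ± 0.321 CPM per kb. The ranges of Dlx2 and Sp8 and of Sp8 and Sp9 overlapped, and that of Dlx6 lay below all others. The Input kept another order, with Dlx6os1 (3.98 CPM per kb), Dlx5 (3.02) and Dlx1 (2.78) ahead of Dlx2 (1.30), Sp9 (0.690), Dlx6 (0.682) and Sp8 (0.158). Dlx1 made up 76.5%, 84.6% and 70.4% of the counts of the 4 Dlx genes in IP 1, 2 and 3, and 55.2% in the Input.

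**Figure D4:**
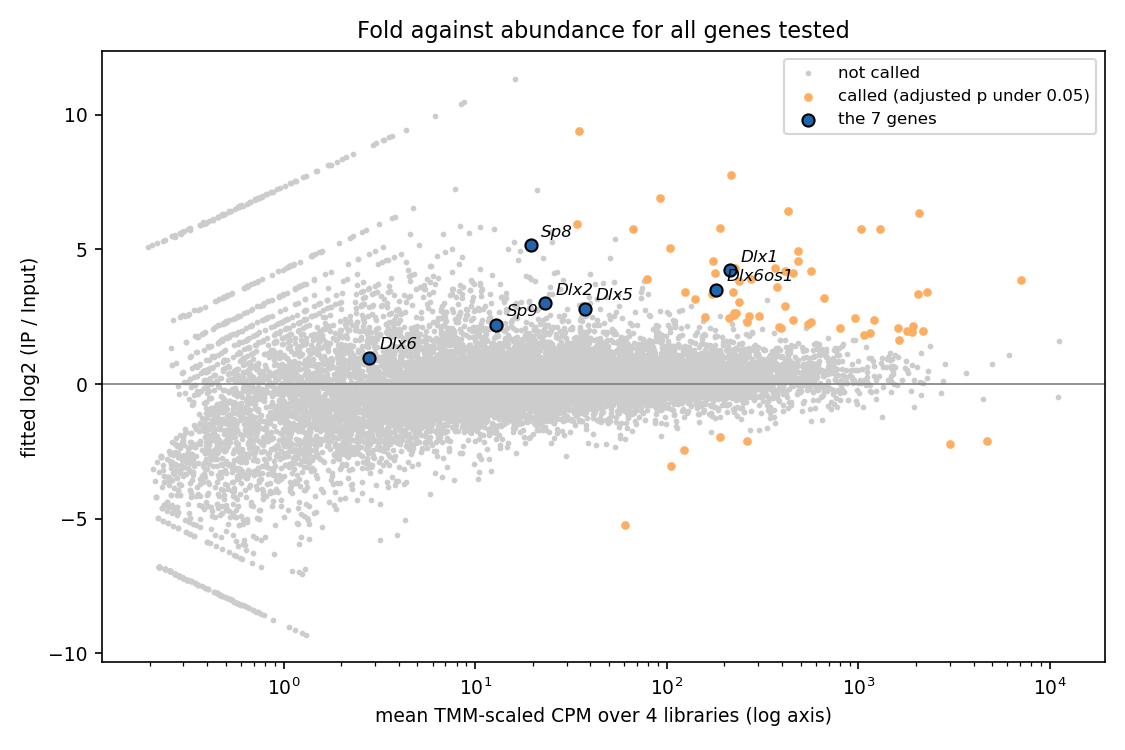
Fitted log2 fold of IP over Input against mean TMM-scaled CPM over the 4 libraries (log axis) for 14636 genes, with called genes in orange and the 7 genes in blue. Dlx1 and Dlx6os1 are the most abundant of the 7 and lie among the called genes, whereas Sp8, with a higher fold, lies at lower abundance and is not called.

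The IP libraries did not carry the 7 genes evenly. Their coefficient of variation over the IP libraries was 13.0% for Dlx6os1, 23.8% for Dlx6, 25.2% for Dlx1, 26.7% for Dlx2 and 33.8% for Dlx5, beside a median of 39.8% over 10436 genes with a mean of at least 5 CPM in IP, to which Dlx6 does not belong. For Sp9 it was 60.9% and for Sp8 66.9%. IP 1 was the highest IP library for 6 of the 7, all but Dlx6, and IP 2 the lowest for Dlx2, Dlx5, Dlx6os1, Sp8 and Sp9. Summed markers of other cells also differed between these libraries. In IP 1, 2 and 3, 6 endothelial markers summed to 110.02, 437 and 164 CPM, against 29.2 CPM in the Input, and 5 excitatory markers to 2982, 5639 and 4523 CPM, against 4472 CPM in the Input. Most of the excitatory sum was Camk2a (2590, 4976 and 4160 CPM in IP, 2902 CPM in the Input), while Slc17a7, Nrgn and Nrn1 were below the Input in every IP library and the median log2 fold of the 5 was -1.22. All 6 endothelial genes (median log2 fold 3.40) were above the Input in every IP library, as were 19.7% of all genes tested. With edgeR and limma-voom 0 of the endothelial genes were called, with DESeq2 2 were higher, and 3 were higher at an unadjusted p under 0.05 in edgeR. Both sums were highest in IP 2. Most of the endothelial sum in IP 2 was Slc2a1 (49.9, 307 and 103 CPM in IP 1, 2 and 3). Flt1, Kdr and Tek were also highest in IP 2. Cldn5 (5.67, 1.82 and 5.86 CPM) and Pecam1 (6.06, 4.92 and 30.9 CPM) were instead lowest there. The part of either sum in the low IP 2 values of Sp8 and Sp9 was not tested.

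Within the pathway, genes known from mouse work to act before Dlx in the ventral forebrain were read first. Of 7 named, 5 were tested and 0 were called with any of edgeR, DESeq2 and limma-voom, with 0 at an unadjusted p under 0.05 (median log2 fold -1.69, also with Gsx2 at its bound). Olig1 and Olig2, known in the adult from oligodendrocytes, were at 3.88 to 19.9 and 1.26 to 12.1 CPM in IP and at 36.7 and 18.5 CPM in the Input. Nkx2-1, the patterning factor of the medial ganglionic eminence (MGE), had no count in any library. Chosen after its values were seen, Gsx2, a homeobox gene of precursors, had 140, 3 and 5 counts in IP 1, 2 and 3 and 0 in the Input, so its mean was at least 12.7-fold higher than the limit that 0 counts allow in the Input. Without IP 1 that bound was 2.09-fold.

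Of 7 genes described as activated by Dlx factors, 2 rose, where 0.41% of all genes tested were called higher. All 7 (median log2 fold 2.38) were above the Input in each IP library, as were 19.7% of all genes tested. DESeq2 called 4 of the 7 higher, and 1.15% of all genes tested. Gad1 rose to 980, 666 and 922 CPM in IP, against 94.3 CPM in the Input, and Gad2 to 1647, 1249.95 and 1623 CPM, against 289 CPM in the Input. Slc32a1, the vesicular GABA transporter, lay just outside the threshold (log2 fold 2.73 ± 0.62, edgeR adjusted p = 0.0651). It passed in 5 of 11 alternatives, those with DESeq2 (adjusted p = 9.2e-05), without a low-count filter (0.0113), with a robust prior (0.0418), without IP 1 (0.0178) and without IP 2 (0.0064), and over all 11 its adjusted p was 9.2e-05 to 0.275. Of its exonic bases, 24.92% also belong to the gene model Gm14205. Grin2b, an NMDA receptor subunit, had a log2 fold of 1.05 ± 0.46 and Zeb2, a zinc finger factor of migrating interneurons, of 0.84 ± 0.35. Npas1, a basic helix-loop-helix factor, had one of 3.36 ± 1.15. None of these 3 passed in edgeR, and Npas1 passed in DESeq2 (adjusted p = 0.00557). Of 3 genes described as repressed by Dlx factors, 0 were called with any of edgeR, DESeq2 and limma-voom and 0 were at an unadjusted p under 0.05 (median log2 fold 0.24), with Pak3, a kinase of neurite growth, at 269, 319 and 285 CPM in IP and at 247 CPM in the Input.

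Other Dlx and Sp genes were examined as relatives of the 7. Dlx3 had no count in any library, and Dlx4 had 6 counts in the Input and none in IP. Of 9 other Dlx and Sp genes, 5 were tested and 0 were called with any of edgeR, DESeq2 and limma-voom, with 0 at an unadjusted p under 0.05 (median log2 fold 0.17). Among them were the broadly expressed Sp3 (75.4, 65.0 and 99.8 CPM in IP, 93.7 CPM in the Input), Sp4 (75.4, 92.9 and 53.7 CPM in IP, 65.7 CPM in the Input) and Sp1 (37.8, 55.0 and 27.2 CPM in IP, 39.6 CPM in the Input). None of the 5 was on 1 side of the Input in all 3 IP libraries.

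Chromosomal neighbours were examined next. Within 500 kb of the 7 genes lay 29 other genes, of which 24 were tested. With edgeR and with limma-voom 0 were called, and with DESeq2 1, Dlx1as (adjusted p = 0.0147). At an unadjusted p under 0.05 in edgeR, Dlx1as was higher and Chn1 and Rapgef4 lower. The median log2 fold of the 24 was -0.28. In every IP library 4 of them, Dlx1as included, exceeded the Input, as did 19.7% of all genes tested. The most abundant were Chn1, near Sp9, at 650, 566 and 708 CPM in IP and 1158 CPM in the Input, and Slc25a12, near Dlx1, at 239, 270 and 275 CPM in IP and 189 CPM in the Input. Rapgef4 was at 143 to 153 CPM in IP and 292 CPM in the Input, and Dync1i2 at 104 to 150.02 CPM in IP and 110.2 CPM in the Input.

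Lists of lineage genes were read beside the 7, where 0.41% of all genes tested were called higher in IP. Gad1 and Gad2 stand both on the list of GABAergic genes and on that of activated Dlx targets. Of 10 genes shared by GABAergic neurons, 5 rose (Gad1, Gad2, the neuregulin receptor gene Erbb4, the potassium channel partner gene Kcnip1, and Dlx6os1 itself), with a median log2 fold of 2.31. Of 10 CGE markers 7 rose, with log2 folds of 2.45 for Cnr1, 3.81 for Prox1, 4.22 for Adarb2, 4.57 for Nr2f2, 4.93 for Cxcl14, 5.78 for Htr3a and 6.36 for Vip (median of the 10, 4.02). The fit with limma-voom ended the calls of Kcnip1 (adjusted p = 0.0775), Nr2f2 (0.364) and Htr3a (0.0876). Of 6 tested MGE factors 1 rose, the synaptic adhesion gene Elfn1 (log2 fold 2.66 ± 0.51; ended by limma-voom at an adjusted p of 0.0757), with Lhx6 at 21.4, 26.7 and 72.5 CPM in IP and at 39.9 CPM in the Input. The median log2 fold of that list was 0.27.

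Factors of the lateral ganglionic eminence and olfactory bulb belong to lineages in which Sp8 and Sp9 are also known. Of 9 tested 0 were called by edgeR or limma-voom, 1 was lower by DESeq2, and 2 were lower at an unadjusted p under 0.05 (median log2 fold -0.79). Etv1 was at 45.5, 68.9 and 51.6 CPM in IP and at 209 CPM in the Input, and Meis2 at 134, 144 and 121 CPM in IP and at 316 CPM in the Input. Both were among 6 of the 9 that were below the Input in every IP library, as were 24.1% of all genes tested. Tshz1 was the 1 gene above the Input in each, at 41.6, 68.6 and 69.5 CPM in IP and at 38.7 CPM in the Input. Ebf1 had a log2 fold of 2.74 ± 1.76 and was not called. The part of these lineages in the levels of Sp8 and Sp9 was not tested. Of 14 transcription factors of cortical excitatory neurons 0 were called with any of edgeR, DESeq2 and limma-voom, with 2 lower at an unadjusted p under 0.05. In every IP library 9 of the 14 were below the Input, as were 24.1% of all genes tested.

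**Figure D5:**
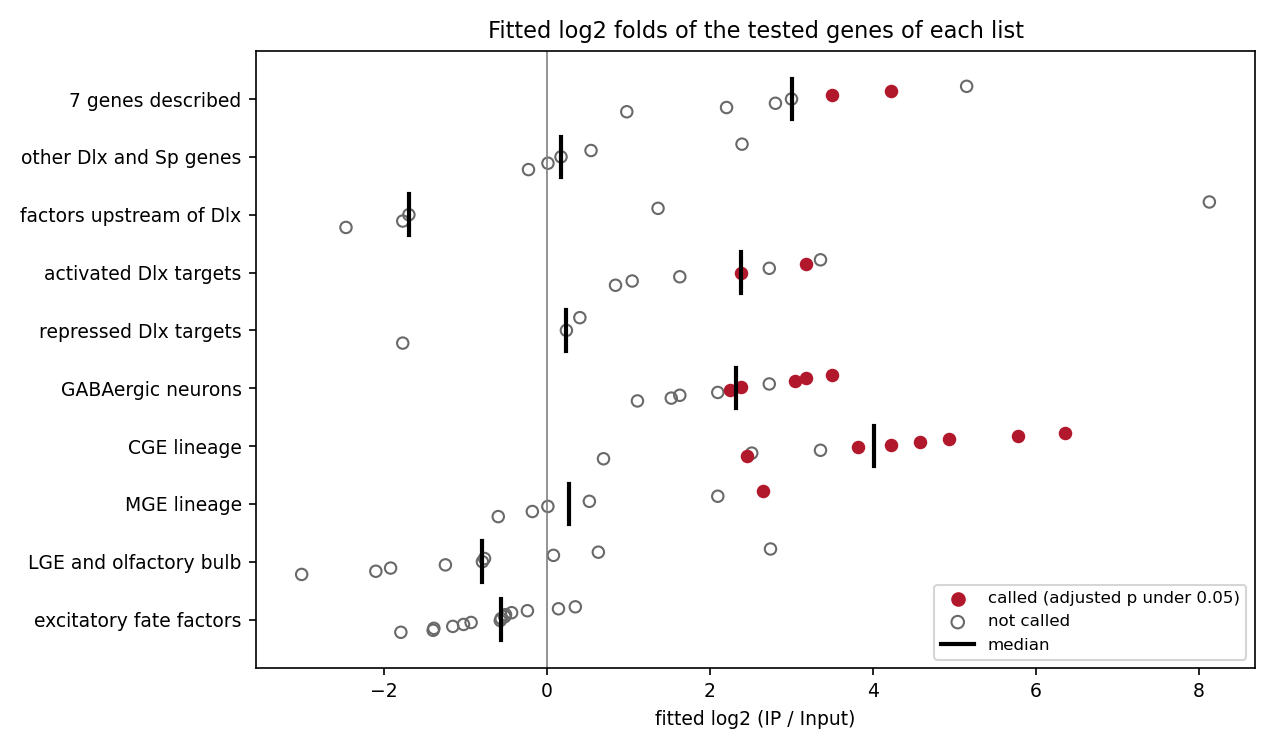
Fitted log2 folds of IP over Input for the tested genes of the lists drawn (circles, filled where the adjusted p was under 0.05), with the median of each (bar). Lists of endothelial, striatal, neuroblast, excitatory marker, astrocyte, oligodendrocyte and microglial genes are not drawn. The endothelial median (3.40) lay above that of the 7 genes. The 7 genes centre on 3.001, between the CGE markers (4.02) and the GABAergic genes (2.31), while other Dlx and Sp genes centre on 0.17. The fitted value of the rightmost open circle, Gsx2, rests on 0 counts in the Input and is no bound.

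Other cells that make Dlx or Sp genes had these marker levels. For 8 markers of striatal projection neurons, of which 7 were tested and 0 called with any of the 3 tools (0 at an unadjusted p under 0.05), the sum was 201, 93.0 and 200.2 CPM in IP and 183 CPM in the Input, with a median log2 fold of 0.075. Of its defining markers, Drd2 was at 4.84, 7.38 and 6.12 CPM in IP and at 1.92 CPM in the Input, and Drd1 at 22.4, 5.13 and 15.0 CPM in IP and at 8.10 CPM in the Input. Adora2a had 0, 0 and 7 counts in IP and 12 in the Input. For 8 markers of neuroblasts and dividing cells, of which 7 were tested and 0 called with any of the 3 tools (1 higher at an unadjusted p under 0.05), the sum was 561, 260.04 and 318 CPM in IP and 232 CPM in the Input, with a median log2 fold of 1.12. Of the 7 tested, 4 were above the Input in every IP library, as were 19.7% of all genes tested. The 4 were the proliferation genes Mki67 (22.4, 5.24 and 26.6 CPM in IP, 1.98 CPM in the Input) and Top2a (5.32, 2.99 and 1.21 CPM in IP, 0.180 CPM in the Input, from 3 counts), Cd24a and Tubb3. Dcx was below it in every one, at 45.4, 62.9 and 26.0 CPM in IP and at 67.0 CPM in the Input, and Igfbpl1 had no count in any library. Astrocyte, oligodendrocyte and microglial lists had 0 calls each with any of edgeR, DESeq2 and limma-voom, and medians of -0.84, -0.34 and -2.66. At an unadjusted p under 0.05 in edgeR, 1 oligodendrocyte gene was lower, 1 was higher, and 1 microglial gene was lower. Of 7 oligodendrocyte genes, 2 were above the Input in every IP library and 3 below (19.7% and 24.1% of all genes tested). The 2 were Pdgfra (22.2, 62.1 and 15.3 CPM in IP, 14.5 CPM in the Input) and Cspg4 (27.8, 11.2 and 23.6 CPM in IP, 2.70 CPM in the Input). Of 5 excitatory markers Nrgn and Nrn1 fell, where 0.0478% of all genes tested were called lower. Slc17a7 was also below the Input in every IP library but was not called. Camk2a and Slc17a6 (20.4, 35.3 and 3.19 CPM in IP, 11.3 CPM in the Input) lay on both sides of the Input. The part of such cells in the levels of the 7 genes was not tested.

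By profile, the tested genes nearest to the 7 were sought over the 3 log2 ratios to the Input, whose medians over the 7 were 3.20, 2.44 and 2.87 in IP 1, 2 and 3. Zcchc12 came nearest, with a root mean square distance of 0.16 on the log2 scale, followed by Slc32a1 (0.20), Pde1c (0.22), Kcnip1 (0.23) and Slc5a7 (0.28). Zcchc12 was at 79.5, 54.9 and 82.2 CPM in IP and at 9.65 CPM in the Input. Such nearness rests on 3 ratios that share 1 Input.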

How the data were processed

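TRAP RNA-seq counts of 3 IP libraries and 1 Input library were analysed. Each deposited table holds raw counts for genes listed by Entrez identifier and symbol. The submitters' processing notes name STAR 2.0.0e, HTSeq and mm10, while the annotation, strand and treatment of multiply mapped reads are not given in the sources used here. Genes without a symbol made up 0.0175 to 0.0221% of the counts per library and were kept by identifier.

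In R 4.3.3 with edgeR 4.0.16, filterByExpr (minimum count 10) left 14636 genes, which were scaled by TMM and tested with the quasi-likelihood F test (2 residual degrees of freedom, prior 17.0), two-sided, with Benjamini-Hochberg adjustment over all genes kept and a threshold of 0.05. SE was obtained from the log2 fold and the root of F. Single-library ratios add 0.5 CPM. On data simulated for this comparison (14001 genes), 50 genes were changed at each log2 fold. Of these 50, 9 were recovered at a log2 fold of 2, 23 at 3, 41 at 4 and 38 at 5, with 12 false calls in all.

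The genes described and all lists were chosen with earlier results of these data known. Named were the 7 genes, called members of 16 lists, up to 3 of the most abundant others (some are not reported here), neighbours within 500 kb (the 4 most abundant), the 5 nearest profiles, and Crh. Of the 16 lists, 9 genes stand on more than 1. Coordinates are RefSeq GRCm38.p6, matched for 24045 of the identifiers, and exons GENCODE M21. Alternatives were RLE, upper-quartile and total scaling, 2 other filters, DESeq2 1.42.0, limma-voom (limma 3.58.1), a stricter threshold (0.01), robust estimation of the prior, and the omission of 1 IP library at a time.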

Additional observations from a re-analysis of the deposited data

How the results depend on the processing

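The count of genes differing between IP and Input, 67, was 108 without a low-count filter, 182 with DESeq2, 39 at an adjusted p under 0.01 and 90 to 210 when an IP library was left out. Of the 7 genes 2 differed, and this count was 5 with DESeq2 and 2 to 3 when an IP library was left out. Of 76 repeats of the 7 folds, 72 kept their direction and their side of the threshold and 4 became calls (Dlx2, Dlx5 and Sp8 with DESeq2, Sp8 without IP 2). The fold of Dlx6 has no value with a mean of at least 5 CPM. Among the other genes named, the log2 fold of Sp1 turned to -0.21 with upper-quartile factors, -0.27 with library totals, -0.096 with a mean of at least 5 CPM, -0.071 with limma-voom and -0.29 without IP 2 (-0.29 to 0.23 when an IP library was left out). That of Sp4 turned to -0.047, -0.10 and -0.026 with upper-quartile factors, with library totals and without IP 2 (-0.026 to 0.36 when an IP library was left out), and that of Pak3 to -0.037 with library totals, and none of these was called. The median log2 fold of all genes was 0.083 with TMM, -0.13 with upper-quartile factors and -0.19 with library totals. When an IP library was left out, the mean IP share was 88.6 to 91.5% for Dlx1 and 91.6 to 95.1% for Dlx5. It was 98.5 to 98.9% for Dlx6os1 and 56.0 to 64.1% for Sp8. No paired analysis was possible because the Input carries no replicate number. The lone Input limits every fold, most for Sp8 (12 Input counts) and Dlx6 (27), and intervals cover counting error only; the cause of these shifts was not tested.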
